A study of Arabidopsis thaliana with 4 samples.

Results

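In Arabidopsis thaliana, 5 cold-regulated genes were followed across 4 seedling arrays: COR15A (AT2G42540), COR15B (AT2G42530), COR47 (AT1G20440), AT4G33980 (COR28) and AT4G30650. They were taken by name and locus from the annotation of the array, where each has 1 probe set, so they are 5 of 22746 probe sets, and all 5 passed the level filter that 12601 probe sets passed. COR15A, COR15B and COR47 belong to the cold and drought genes, and AT4G33980 and AT4G30650 were selected on their values in the gl3 egl3 array, which lay below those of the other arrays. The 5 were grouped with the gl3 egl3 values of all of them known, so these are given as a description, with no test.

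In the cold, the CBF transcription factors bind a short element in the promoters of COR (cold-regulated) genes and switch them on, and the products protect cells against freezing and water loss. COR15A and COR15B are hydrophilic proteins of the chloroplast stroma that stabilise membranes during freezing, and COR47 is a dehydrin, a class of water-loving stress proteins. COR28 and its relative COR27 are induced by cold and by light at night, and repress genes of the circadian clock. AT4G30650 belongs to the PMP3 family of very small membrane proteins, which includes the cold-induced RCI2A and RCI2B.

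The arrays measured total RNA of 1 sample each of wild type, gl1, ttg1 and the double mutant gl3 egl3, lines whose mutants lack trichomes (leaf hairs), and the stated purpose was to find transcripts enriched in trichomes. The mutated genes encode the parts of one regulatory complex, in which the MYB factor GL1 and the WD40 protein TTG1 join the bHLH factors GL3 and EGL3. All plants were grown at 22 °C under 16 h of light and 8 h of darkness, with no cold treatment in the labels; no hour of harvest is stated. The seedlings were 20 days old, except that no age is given for gl1. Use of green tissue alone is stated for wild type, gl1 and ttg1 and not for gl3 egl3. The Landsberg erecta (Ler) accession is named as the reference of ttg1 and gl3 egl3, and no accession is given for wild type and gl1, so accession and genotype cannot be told apart. The series text and the sample title name different genes as the second of the double mutant, and the title was followed. No named probe set covers GL1, TTG1, GL3 or EGL3, so the genotypes were not checked against them.

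Values are log2 probe set levels after quantile normalization, which gives the 4 arrays one distribution. Each genotype has 1 array, so no difference between a mutant and wild type is checked by a replicate, and its size can be read only beside the same difference in all 12601 probe sets. In gl1, 5% of these lay below -0.67 and 5% above 0.62 (log2), in ttg1 below -0.87 and above 0.73, and in gl3 egl3 below -1.19 and above 1.16. By the 2-fold rule (a difference of at least 1), 1.90% were lower than wild type in gl1, 3.78% were so in ttg1, and gl3 egl3 had 7.37%. As deposited, where the mutant columns run higher than wild type, the counts lower and higher were 112 and 656 in gl1 (240 and 122 after quantile normalization), 307 and 775 in ttg1 (476 and 225) and 485 and 1561 in gl3 egl3 (929 and 836). RCA, a Rubisco activase gene and the 1 named gene of 10 green tissue markers, was at 12.19 to 12.30 in every array. Its difference from wild type in gl3 egl3 depended on the scaling. It was 0.11 after quantile normalization, 0.52 as deposited, 0.26 under cyclic loess and 0.065 with medians subtracted. The 3 named of 11 root markers had a summed level (log2) of 11.21 in wild type against 11.37 in gl1, 11.20 in ttg1 and 10.93 in the double mutant, nearly all of it from PYK10, a beta-glucosidase gene. Of the root hair expansin genes, EXPA7 was at 3.26 to 3.39 and EXPA18 at 5.34, 5.11, 4.27 and 3.89 in the same order. Both were under the level filter in every array. The difference of EXPA18 from wild type in gl3 egl3 was -1.44 after quantile normalization and -0.25 as deposited. The 3' minus 5' signal of the actin control, a sign of RNA quality, was 3.56 in wild type against 3.65 in gl1, 3.74 in ttg1 and 4.23 in the double mutant. That of the ubiquitin control was 2.15, 2.17, 2.56 and 2.86, and that of GAPDH 1.46, 1.05, 1.14 and 1.47. The part of these differences in the results below was not tested.

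Of the 5 genes, 3 were at least 2-fold lower in gl3 egl3 than in wild type (COR15B, AT4G33980 and AT4G30650), COR15A was lower by a smaller margin, and COR47 was at the wild-type level. None of the 5 was 2-fold from wild type in gl1 or ttg1. Of all tested probe sets, 1.90% were 2-fold lower and 0.968% higher in gl1, and 3.78% and 1.79% in ttg1. Beside shares this small, the lack of a call among 5 genes carries no reading. The median difference of the 5 genes from wild type was 0.14 in gl1, -0.03 in ttg1 and -1.51 in the double mutant (log2), where the median of all tested probe sets was 0.01, 0.04 and 0.02. The share of 7.37% called lower in gl3 egl3 stands beside 3 of 5 only as a reference. Of the 3, 2 were selected on this array, and all 5 genes were grouped with their gl3 egl3 values known. The same limit holds for the median of -1.51. In bulk tissue, fewer cells of a type and less RNA per cell cannot be told apart.

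**Figure D1:**
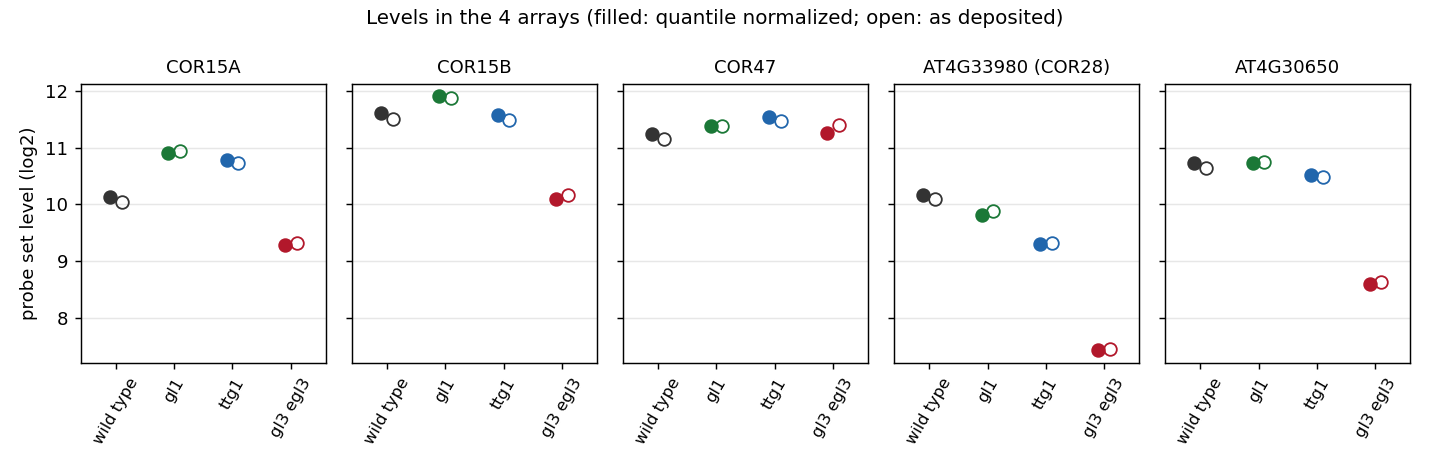
Probe set level (log2, vertical axis) of the 5 genes in the wild-type, gl1, ttg1 and gl3 egl3 arrays; each point is 1 array, filled after quantile normalization and open as deposited. The gl3 egl3 point is the lowest of the 4 for COR15A, COR15B, AT4G33980 and AT4G30650 on both scales, and COR47 stays between 11.15 and 11.54.

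Among the structural proteins, COR15A was at 10.12 in wild type against 10.92 in gl1, 10.78 in ttg1 and 9.28 in the double mutant (log2 level). Both single mutants were above wild type and the double mutant was below it. The differences from wild type were 0.79, 0.66 and -0.84 (log2), which are 1.73-fold and 1.58-fold higher and 1.79-fold lower. Of all tested probe sets, 97.8% had a smaller difference in gl1 and 93.5% in ttg1, so COR15A lay near the upper edge of the spread in both. In gl3 egl3, 10.1% lay below it.

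COR15B, whose gene lies next to COR15A in the annotation, was at 11.61 in wild type against 11.91 in gl1, 11.58 in ttg1 and 10.10 in the double mutant. Wild type, gl1 and ttg1 lay within 0.33 (log2) of one another, and gl3 egl3 was below each of them. The difference from wild type was 0.30 in gl1, -0.03 in ttg1 and -1.51 in the double mutant, the last being 2.86-fold lower. The neighbouring genes thus shared their lowest array, while of the pair only COR15A was above wild type by more than 0.6 in gl1 and ttg1. Against ttg1, the other array with Ler named as its reference, both were lower in gl3 egl3 by like amounts, with a difference of -1.50 for COR15A and -1.48 for COR15B. The annotated span of COR15B overlaps that of AT2G42520 on its other side, a gene outside the rule for named genes and given for that overlap, whose level was 9.68, 9.53, 9.77 and 9.09 in wild type, gl1, ttg1 and gl3 egl3.

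COR47 was at 11.24 in wild type against 11.38 in gl1, 11.54 in ttg1 and 11.26 in the double mutant. Its 4 values spanned 0.30 (log2), and the order of the arrays within so small a span carries no reading. Its difference from wild type was 0.14, 0.30 and 0.02, each inside the central 90% of tested probe sets. The deposited values of COR47 ran from 11.15 to 11.47, and there its difference in gl3 egl3 was 0.26.

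AT4G33980 encodes COR28. It was at 10.17 in wild type against 9.81 in gl1, 9.30 in ttg1 and 7.42 in the double mutant, the widest span of the 5 genes at 2.75 (log2). Every mutant was below wild type, by 0.36 in gl1 and 0.87 in ttg1 on the log2 scale, and gl3 egl3 was 6.73-fold lower. In ttg1 the difference of -0.87 lay at the lower edge of the spread, with 4.98% of tested probe sets below it, and in gl1 15.0% were below. In gl3 egl3, 22 of 12601 probe sets had a lower difference.

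AT4G30650, the small membrane protein gene, was at 10.73 in wild type against 10.73 in gl1, 10.53 in ttg1 and 8.59 in the double mutant. The first 3 arrays spanned 0.21 (log2), the narrowest of the 5 genes. The gl3 egl3 array was 4.38-fold below wild type, a difference of -2.13, and lay 1.93 below ttg1 on the log2 scale.

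Set against the mutants in place of wild type, 4 of the 5 genes, with COR47 the exception, were at least 2-fold lower in gl3 egl3 than in gl1 and than in ttg1. The differences from ttg1 ran from -1.48 to -1.93 for these 4 and that of COR47 was -0.29. Over all tested probe sets 5.80% were 2-fold lower than in gl1 and 3.73% than in ttg1. These comparisons share the gl3 egl3 array on which members were selected.

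**Figure D2:**
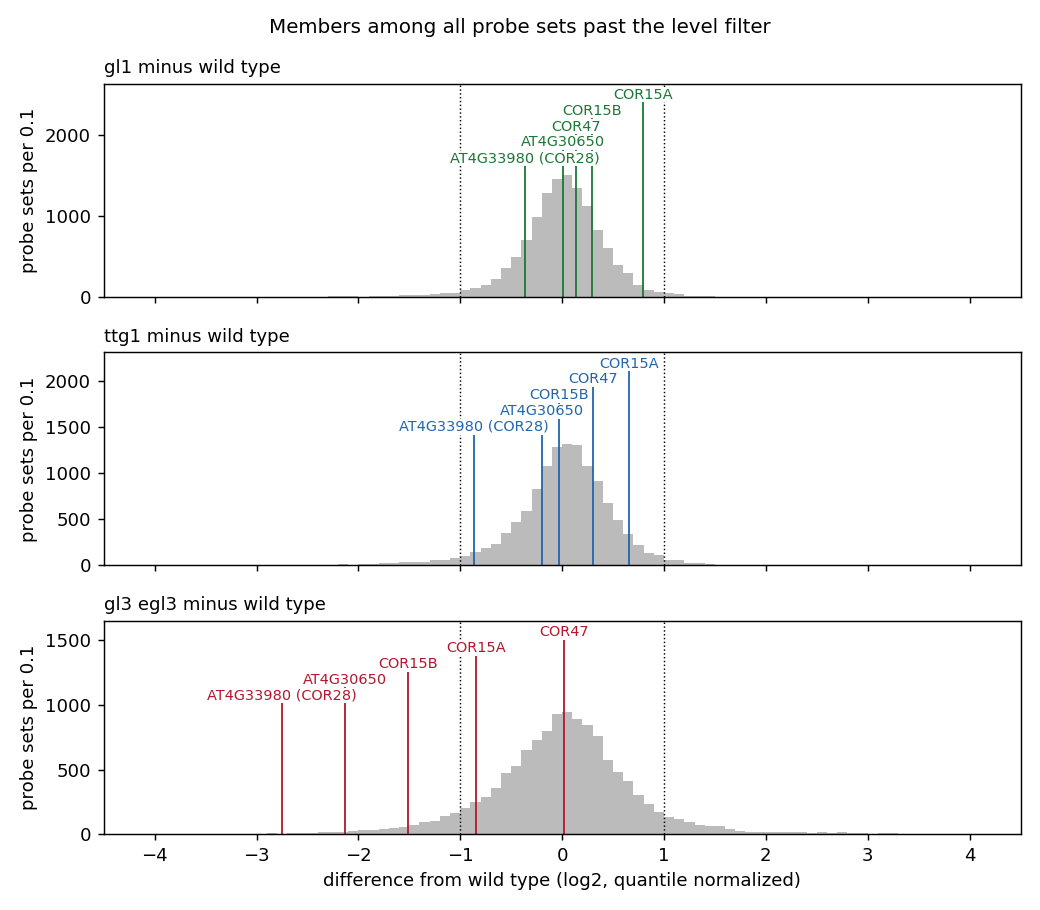
Difference from wild type (log2, horizontal axis) of 12601 probe sets, in bins of 0.1, for gl1, ttg1 and gl3 egl3; vertical lines mark the 5 genes and dotted lines a 2-fold difference. In gl1 and ttg1 the 5 lines fall within 2-fold, from -0.87 to 0.79, and in gl3 egl3 from -2.75 to 0.02.

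To keep the array on which members were selected out of the test, gl1 and ttg1 were set against wild type as one class. limma's test takes its spread from the 2 mutants and assumes that the lone wild-type array varies like them. The deposited wild-type column could be 1 array or a mean of others, and this assumption was not tested. Nothing in the labels says that the samples came from separate plantings. The wild-type array is also part of the gl3 egl3 comparison. The gl3 egl3 array still took part in the quantile normalization and in the level filter. None of the 5 genes and none (0%) of the 12601 probe sets passed at an adjusted p under 0.05, the smallest limma gave being 0.55; 1106 (8.78%) had an unadjusted p under 0.05, among them 1 of the 5. That gene was COR15A, higher by 0.73 ± 0.18 (log2, SE) in both mutants, with an unadjusted p of 0.023 and an adjusted p of 0.55 by limma. AT4G33980 differed by -0.62 ± 0.29 (limma adjusted p = 0.58), lower in both. COR47 differed by 0.22 ± 0.19 (limma adjusted p = 0.69) and COR15B by 0.13 ± 0.23 (limma adjusted p = 0.85). AT4G30650 differed by -0.10 ± 0.20 (limma adjusted p = 0.87). With each array's median subtracted, COR15B and COR47 took the other sign, at -0.27 and -0.16. The value of COR15A, a mean over gl1 and ttg1, was then 0.36. Over the main setting and the 6 alternatives on these 3 arrays, limma's adjusted p of COR15A ran from 0.19 to 0.77.

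Of 36 cold-induced effector genes listed, 9 are named here and all 9 passed the level filter, the 5 genes above included. In gl3 egl3, 4 of the 9 were 2-fold lower than wild type, 1 was 2-fold higher and 4 were neither, with a median difference of -0.84. In ttg1 1 was lower and 1 higher, and in gl1 none was, with medians of -0.03 and 0.14. Over all tested probe sets, 7.37% were 2-fold lower in gl3 egl3, 3.78% in ttg1 and 1.90% in gl1, and 6.63%, 1.79% and 0.968% were 2-fold higher. Of the 4 lower in gl3 egl3, 3 are among the 5 genes, which were grouped with their gl3 egl3 values known. The count and the median of the 9 there are therefore a description. Without the 5 genes, 4 remain, of which 1 was lower and 1 higher in gl3 egl3, with a median difference of -0.63. Beside the shares over all tested probe sets, counts of 1 among 4 genes carry no reading.

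The lower one was COR27, the relative of COR28, at 10.71 in wild type against 10.06 in gl1, 9.67 in ttg1 and 8.32 in the double mutant. Its arrays stood in the same order as those of AT4G33980, with differences from wild type of -0.65, -1.04 and -2.39 beside -0.36, -0.87 and -2.75. In the deposited values COR27 was at -0.95 in ttg1, short of 2-fold. TIL, a temperature-induced lipocalin gene, was the higher one, at 7.87, 8.46, 8.23 and 8.96 in wild type, gl1, ttg1 and gl3 egl3, or 2.12-fold above wild type in the double mutant; with medians subtracted its difference there was 0.87, short of 2-fold. LTI30, a dehydrin gene, was at 7.50, 8.30, 8.59 and 6.93 in the same order. Like COR15A it was above wild type in both single mutants and below it in gl3 egl3, with differences of 0.80, 1.09 and -0.57. With medians subtracted the difference of LTI30 in ttg1 was 0.97, short of 2-fold. LEA4-5, a gene of the late embryogenesis abundant (LEA) proteins, was at 6.33, 5.34, 5.77 and 5.63 and passed the filter only through wild type, so that its lower values in the mutants carry no reading. In the deposited values its differences were -0.61, -0.20 and -0.11. Under cyclic loess and with medians subtracted LEA4-5 was at -1.08 in gl1, past 2-fold.

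**Figure D3:**
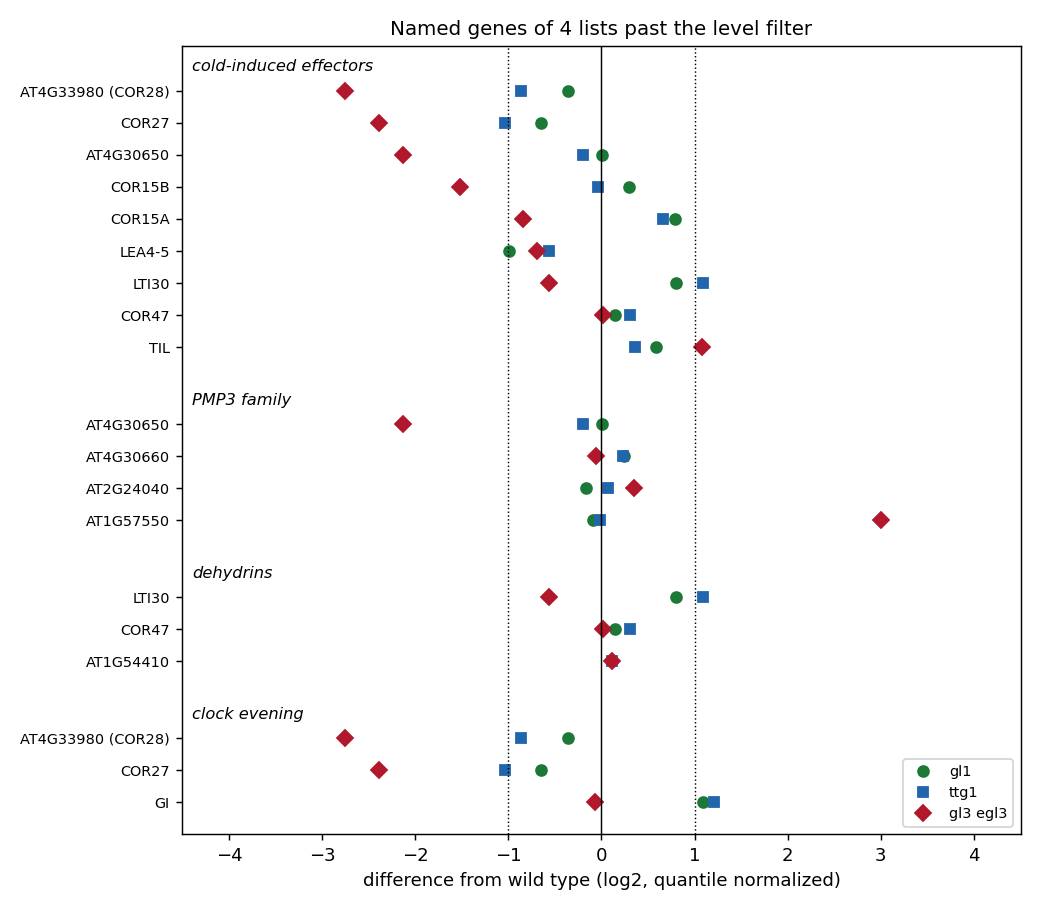
Difference from wild type (log2, horizontal axis; dotted lines at 2-fold) of the named genes of 4 lists that passed the level filter, with 1 point per mutant array and genes in more than 1 list shown in each. In gl3 egl3, COR28, COR27, AT4G30650 and COR15B lie beyond 2-fold on the lower side, and TIL and AT1G57550 on the higher side; AT1G57550 passed the filter only through that array, GI only through gl1 and ttg1, and LEA4-5 only through wild type.

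The named relatives of AT4G30650 had unlike values. Of 8 PMP3 family genes listed, 5 are named and 4 passed the filter, and in gl3 egl3 1 was 2-fold lower, 1 was 2-fold higher and 2 were neither, where 7.37% of all tested probe sets were lower and 6.63% higher. AT4G30660, which lies next to AT4G30650, was at 10.49 in wild type against 10.72 in gl1, 10.72 in ttg1 and 10.42 in the double mutant. So the neighbours differed in the double mutant, where AT4G30660 was at -0.06 from wild type and AT4G30650 at -2.13. The higher one, AT1G57550, was at 4.30, 4.21, 4.29 and 7.31. It passed the filter only through gl3 egl3, so it had to be high there, and the count of 1 higher rests on that. AT2G24040 differed from wild type by -0.16, 0.07 and 0.35 in gl1, ttg1 and gl3 egl3. AT2G38905 did not pass, at 3.40 to 3.96.

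Among 10 dehydrin genes listed, 6 are named and 3 passed the filter. None of the 3 was 2-fold from wild type in gl3 egl3, and LTI30 was 2-fold higher in ttg1, though at 0.97 with medians subtracted. Of all tested probe sets, 7.37% were 2-fold lower and 6.63% higher in gl3 egl3, and 1.79% were higher in ttg1. Beside these shares the counts among 3 genes carry no reading. AT1G54410, a small dehydrin gene, was at 13.04 in wild type and 13.15 in each mutant after quantile normalization. This equal level depended on the scaling. The deposited differences of AT1G54410 from wild type were 0.21 (gl1), 0.14 (ttg1) and 0.57 (double mutant). Under cyclic loess they were 0.28, 0.27 and 0.29, and with medians subtracted -0.27, -0.26 and 0.11. ERD10, the dehydrin gene next to COR47, is not named here. LEA (AT2G21490), AT4G38410 and AT4G39130 stayed under the filter, at 3.50 to 4.67.

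**Figure D4:**
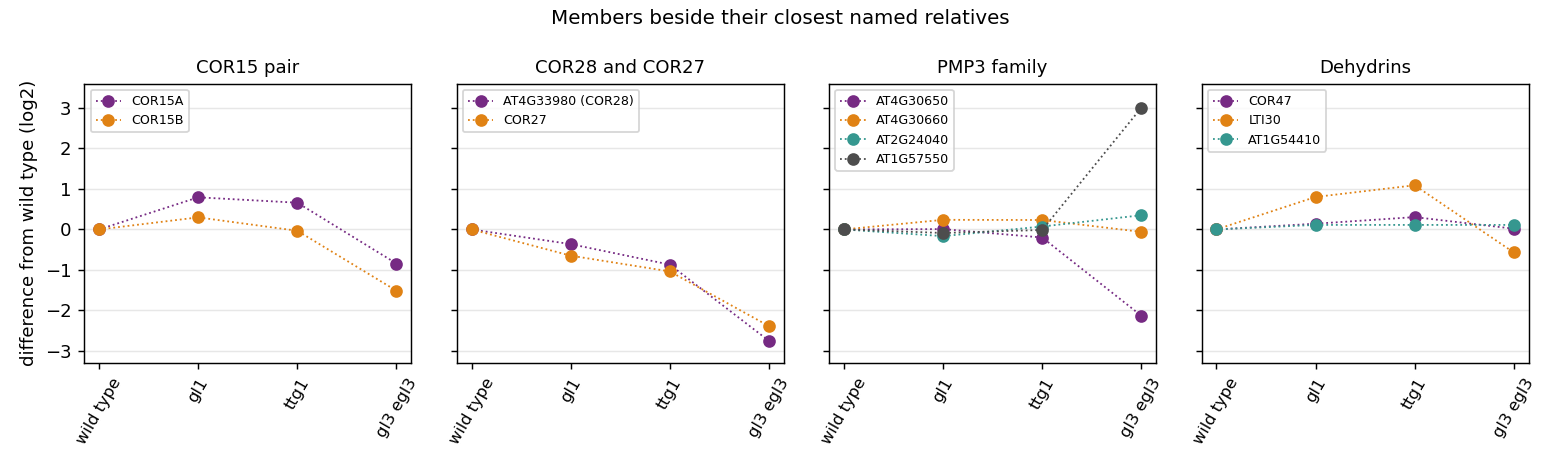
Difference from wild type (log2, vertical axis) in the 4 arrays for the 5 genes and named genes of the same family, wild type being 0 by definition; dotted lines only join the points of a gene. COR15A and COR15B are both lowest in gl3 egl3, as are COR28 and COR27, while AT4G30650 and its neighbour AT4G30660 part there (-2.13 and -0.06).

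COR28 and COR27 also stand in the list of 17 clock genes with an evening peak or role, of which the only other named one is GI. GI was at 5.38 in wild type against 6.47 in gl1, 6.58 in ttg1 and 5.30 in the double mutant. It passed the filter only through gl1 and ttg1, so its higher values there carry no reading. In the double mutant GI was at -0.07 from wild type, and at 0.70 in the deposited values. RVE6 (AT5G52660), the 1 named of 10 morning clock genes, was at 6.04 to 6.18 in every array, under the filter. STZ (ZAT10), a zinc-finger factor gene and the 1 named of 21 cold regulators, was at 9.74 in wild type and at 7.24, 8.27 and 8.22 in gl1, ttg1 and gl3 egl3. The CBF genes are among the 20 not named here. HIS1-3, a drought-induced linker histone gene and the 1 named of 23 drought and abscisic acid genes, was at 5.92, 6.06, 6.99 and 6.82. HIS1-3 passed the filter only through ttg1 and gl3 egl3, so its higher values there carry no reading. No gene of the dark and sugar starvation list or of the seed marker list is named.

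Of the other marker lists, 4 of 11 guard cell genes and 2 of 12 flower genes are named. Their summed levels in wild type, gl1, ttg1 and gl3 egl3 were 11.18, 11.11, 11.30 and 11.41 for guard cells and 6.03, 5.77, 5.48 and 5.81 for flowers (log2). Both flower genes, AMS and AT5G07230 (A9), were under the level filter in every array, as were the guard cell regulators MUTE and SPCH. The other 2 guard cell genes passed it, and neither was 2-fold from wild type in any mutant. Nearly all of the guard cell sum came from 1 of them, AT1G22690, at 11.04, 11.01, 11.22 and 11.34. FAMA (FMA), a guard cell regulator, was at 7.46, 6.87, 6.58 and 6.77, below wild type in each mutant by 0.59, 0.88 and 0.69 on the log2 scale, and its part in the results above was not tested.

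For each of the 5 genes, the 3 nearest of 6730 other named genes were found by the Euclidean distance between log2 profiles over the 4 arrays, each centred on its mean. With 4 arrays a small distance is easily reached, and it is a description. The genes nearest to COR15A were AT3G48120 (distance 0.056), APL3, of starch synthesis (0.20), and AT3G05130 (0.22). AT3G48120 was at 5.95, 6.66, 6.55 and 5.06 in wild type, gl1, ttg1 and gl3 egl3. It passed the level filter only through gl1 and ttg1, so its higher values there carry no reading. APL3 was at 6.80, 7.46, 7.58 and 5.84 in wild type, gl1, ttg1 and gl3 egl3. Those nearest to COR15B were ARPN, a plantacyanin gene (0.13), AT5G25210 (0.16) and AT1G19370 (0.22). Those nearest to COR47 were APA1, an aspartic proteinase gene (0.034), ANK1 (0.037) and AT4G23460 (0.042), whose profiles were as flat. AT4G33980 had no neighbour closer than 0.31, and its nearest were AT1G07050 (0.31), AT3G27610 (0.32) and AT4G20860 (0.42). AT3G27610 passed the level filter only through wild type and gl1. AT1G07050 was at 8.06, 7.74, 7.27 and 5.69. COR27 followed at rank 5 (0.49); it is outside the 3 and was looked up because it is the relative of COR28. The nearest to AT4G30650 were AT1G28710 (0.068), AT1G70100 (0.11) and AT4G31000 (0.25). These 3, and also APL3, ARPN, AT5G25210 and AT1G07050, passed the level filter through the other arrays and were under it in gl3 egl3. Among the 5 genes themselves the closest pair was COR15B and AT4G30650, at 0.45, and the farthest COR47 and AT4G33980, at 2.09.

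Some of the smaller differences, up to 0.30 in size after quantile normalization, changed sign with the scaling, and the larger ones kept theirs. Not every small one changed, since COR15B in ttg1, at -0.033, stayed below 0 under each scaling. Under quantile normalization, the deposited values, cyclic loess and median subtraction, the difference of AT4G33980 in gl3 egl3 ran from -2.65 to -3.10, that of AT4G30650 from -2.02 to -2.48, that of COR15B from -1.35 to -1.80 and that of COR15A from -0.73 to -1.18. COR15A passed 2-fold there under median subtraction alone. In ttg1, AT4G33980 was at -0.78 to -1.18 and also passed 2-fold under median subtraction alone. The sign of COR15B and COR47 in gl1, of COR47 in ttg1 and in the double mutant, and of AT4G30650 in gl1 differed between scalings. Median subtraction sets the median of tested probe sets at -0.14 in gl1, -0.11 in ttg1 and -0.17 in the double mutant, and the deposited values at 0.33, 0.28 and 0.29.

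**Figure D5:**
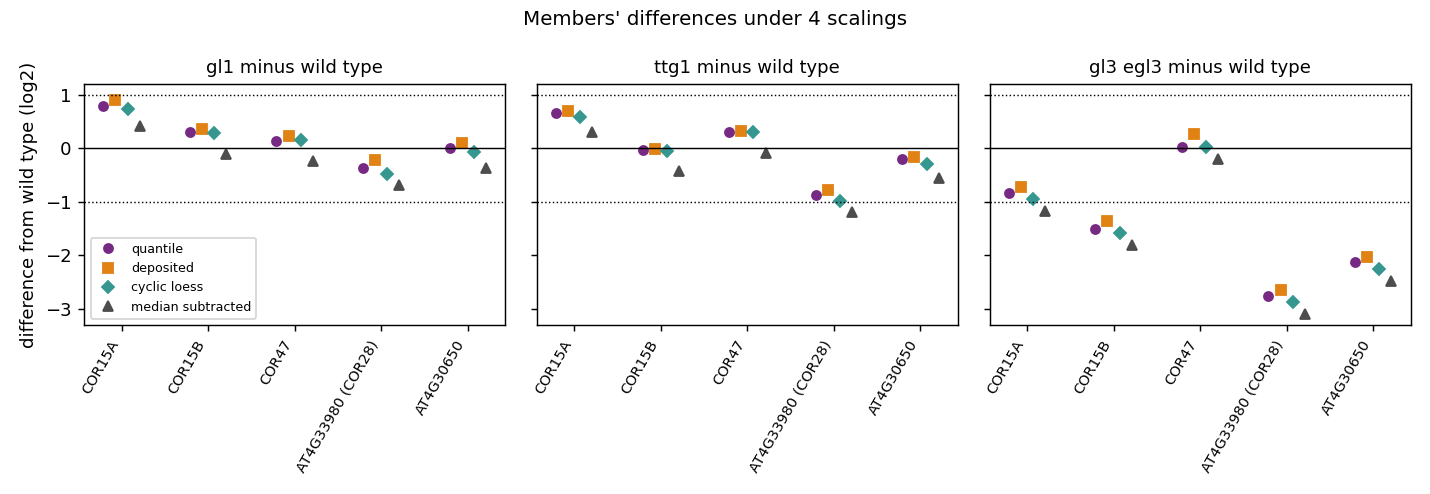
Difference from wild type (log2, vertical axis; dotted lines at 2-fold) of the 5 genes in gl1, ttg1 and gl3 egl3 under 4 scalings, with 1 point per scaling. COR15B, AT4G33980 and AT4G30650 stay beyond 2-fold on the lower side in gl3 egl3 under each of the 4, while COR47 runs from -0.20 to 0.26.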

How the data were processed

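The deposited table holds 1 value per probe set and array on a log2 scale. Per the submitters' processing notes RMA was the tool. Its version, its settings and the scaling between columns were not given in the sources used here. Of 22810 probe sets, 64 controls were left out. The deposited log2 columns differed in distribution, with medians of 5.93 to 6.40 and SDs of 2.01 to 2.41, so the 4 arrays were quantile normalized with limma 3.58.1 in R 4.3.3. In all, 12601 probe sets passed a level filter, a highest value of at least 6.26, the median of all values. Gene names are those of the platform annotation, carried through Entrez numbers to RefSeq genes of TAIR10.1; 13513 probe sets name 1 gene and 13436 of these matched.

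A difference of at least 1 (log2), 2-fold, was the size rule. The 1 test set gl1 and ttg1 against wild type with lmFit and eBayes, and Benjamini-Hochberg adjustment over 12601 probe sets at 0.05. The members, the 13 gene lists and the scaling were chosen with earlier results of these data known. Genes named are the members, listed genes and, per member, the 3 genes nearest in profile; those named outside this rule are marked where they appear. Deposited values, cyclic loess, median subtraction, other level filters and folds, an eBayes trend, gl3 egl3 added to the mutants, and leaving out gl1 or ttg1 were the alternatives. Each member has 1 probe set, so another choice of probe set could not be tried. The test was checked on simulated data in which gl1 and ttg1 had the same changes and the 3 arrays varied alike. Whether the arrays used here do so was not covered by that check. Promoter and protein sequences were not used here. The number of arrays limits the precision.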

Additional observations from a re-analysis of the deposited data

Results flagged for a closer look

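In COR15A and LTI30, mutants lay at least 0.5 (log2) on opposite sides of wild type. The distance between the highest and the lowest mutant was 1.64 for COR15A (gl1 at 0.79 and gl3 egl3 at -0.84) and 1.66 for LTI30 (ttg1 at 1.09 and gl3 egl3 at -0.57). The difference between mutants was not tested, since each has 1 array. The opposite signs were present under the 4 scalings; in the deposited values LTI30 was at -0.27 in gl3 egl3, and with medians subtracted COR15A was at 0.42 in gl1 and 0.29 in ttg1.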

How the results depend on the processing

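No paired analysis was possible because each genotype has 1 array and the labels carry no replicate numbers. Cyclic loess kept each member's difference within limma's SD of that probe set, and so did the deposited values except for COR47 in gl3 egl3 (0.26). With medians subtracted, COR15A was at 0.42 in gl1, 0.29 in ttg1 and -1.18 in the double mutant, COR15B at -0.11, -0.42 and -1.80, COR47 at -0.25, -0.082 and -0.20, AT4G33980 at -0.69, -1.18 and -3.10, and AT4G30650 at -0.37, -0.56 and -2.48; 1 member was then 2-fold lower in ttg1, as at a 1.5-fold threshold, and 0 cold-induced effectors were 2-fold higher in gl3 egl3. Each of these is below its quantile normalized value, as are the medians of all tested probe sets (-0.14, -0.11 and -0.17). Of the members, 4 were 2-fold lower in gl3 egl3 than in gl1 and in ttg1 under each scaling, a comparison added after the data were seen.

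Over all probe sets, lower counts in gl1, ttg1 and gl3 egl3 were 112, 307 and 485 as deposited, 126, 280 and 474 with the level filter at the 75th percentile (fewer were tested), 846, 1192 and 2101 at 1.5-fold and 49, 167 and 305 at 3-fold, and 399 in gl1 with medians subtracted. Higher counts were 656, 775 and 1561 as deposited, 65, 102 and 348 at the 75th percentile, 742, 1095 and 2029 at 1.5-fold and 10, 38 and 304 at 3-fold, and 1436 in gl3 egl3 without a level filter. At the 75th percentile 0 PMP3 genes were higher. limma called 0 probe sets under each of the 6 alternatives on the gl1, ttg1 and wild-type arrays, where 743 to 2973 had an unadjusted p under 0.05; with 2 arrays against 1 this says nothing about stability. Among the alternatives, COR15A was at 0.20 with gl3 egl3 added. COR15B was at -0.27 with medians subtracted, -0.42 with gl3 egl3 added and -0.033 without gl1 (0.30 without ttg1). Values with gl3 egl3 added are a description, since members were selected on that array. COR47 was at -0.16 with medians subtracted, and AT4G30650 at 0.0080 without ttg1 and -0.20 without gl1. The cause was not tested. Leaving out gl1 or ttg1 gives a value with no test.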

Other observations

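SRC2, whose annotation names a soybean gene regulated by cold, was looked up after the values were seen. It was at 10.83 in wild type against 9.81 in gl1, 9.99 in ttg1 and 10.08 in the double mutant (log2), below wild type in all 3 mutants by 0.75 to 1.02, so its lowest array was gl1 and not gl3 egl3. Wild-type values of the deposited table are multiples of 0.005 in 100% of probe sets, so that column could be 1 array or a mean of others; which it is was not tested.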
